A study of Homo sapiens with 2 samples.

Results

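Receptors for the amine transmitters histamine, noradrenaline and adrenaline, dopamine, serotonin and acetylcholine, and receptors for ATP, ADP, UTP and adenosine, were examined as knockout targets in a screen for genes that maintain the fusion oncoprotein EWSR1::FLI1. Members were chosen by symbol alone, as every listed sgRNA against a histamine (HRH), adrenergic (ADRA, ADRB), dopamine (DRD), serotonin (HTR), muscarinic (CHRM), P2Y (P2RY), P2X (P2RX) or adenosine (ADORA) receptor gene, except P2RY8. This gave 236 sgRNAs against 60 genes, of 74336 distinct sgRNAs against 19112 genes in the whole table. The cells were A673, a human Ewing sarcoma line that does not need the fusion to grow in culture, in a reporter version derived from a single clone in which tdTomato is joined to the endogenous EWSR1::FLI1 and in which EGFP and Cas9 are stably expressed. Both populations received the Brunello lentiviral knockout pool at an MOI of 0.3, 2 µg/ml puromycin for 12 days and 3 days of recovery. They differ only in that the sorted cells were gated for low tdTomato and high EGFP, about 7% of the cells, and then expanded, whereas the control library was made from unsorted cells. Each population is 1 library, so no difference has a replicate check.

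Most of these receptors are G protein-coupled: binding of the transmitter outside the cell switches on a G protein inside it. Gs raises cyclic AMP through adenylyl cyclase, Gi lowers it, and Gq activates phospholipase C beta and releases calcium. The P2X receptors and the serotonin HTR3 receptors are instead ion channels that the ligand opens directly. They are best known from neurons, smooth muscle, platelets and immune cells, and guide counts from genomic DNA do not show which of them A673 cells express.

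Guides against the 3 genes with the most enriched sgRNAs, which carry the gene-level result, are shown first, each written 5′ to 3′ as the DNA of its 20-base spacer. Capitals mark the 10 bases next to the PAM, the end of the spacer where pairing matters most to Cas9, and letters run from the highest odds ratio to the lowest.
HRH1-a: cttgtcctctCGGCGCACCG
HRH1-b: cgatacttaaGGTACCTGAG
HRH1-c: tgtatgccgtACGGAGTGAG
P2RY12-a: ccaaccccaaAAATCTCTTG
P2RY12-b: gatcgatagtTATCAGTCCC
P2RY12-c: ccggtcatacGTAAGAACGA
P2RY12-d: cagagactacAAAATCACCC
HTR2C-a: gggcacaaatATCTAGGTAG
HTR2C-b: caagctttgaTGTTACTGCA
HTR2C-c: cgtccctcagTCCAATCACA
HTR2C-d: tctgcgctatATCGCTGGAT

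Guides against other receptors that are among the 10 with the largest odds ratios at 30 or more unsorted reads are shown in the same way, except one against ADRA1A whose sequence is not printed, because each was the strongest guide of a gene whose other guides did less.
P2RY14-a: attccgacttGACTTAAGGT
ADRA1B-a: catcctagtcATCTTGTCTG
CHRM1-a: tcactgtggcTAGCGACAGG
P2RX1-a: aagggctaccAGACCTCGAG
HTR2B-a: aggcaggacaTAGAACAAGT
P2RX6-a: gttccgcattGGGGACCTCG
HTR1B-a: cagctaaaagGACTCCCAAG
P2RY13-a: atgaacaccaCAGTGATGCA

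The unsorted library held 10483144 reads and the sorted library 1455322, a ratio of 7.20, so an sgRNA at equal share in both has 7.20 times more unsorted than sorted reads. Receptor sgRNAs had from 5 to 1010 unsorted reads with a median of 102, beside 103 over the whole table, and 208 of the 236 had at least 30. Enrichment means here that the odds ratio was 2 or more with an adjusted p under 0.05, and depletion that it was 0.5 or less with the same limit. Each p came from Fisher's exact test, two-sided, and was adjusted by the Benjamini-Hochberg method across the full table. The test sets the 2 libraries against each other, not the conditions. Without molecular identifiers, PCR reads are not independent molecules, so every interval covers counting error only. Where the sorted count was 0, the fold is a bound computed against a floor of 3 reads in that library.

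The receptor sgRNAs were called about as often as the rest of the library. Enrichment was called for 51 of 236 (21.6%), where 20.8% of all sgRNAs were enriched. Depletion was called for 131 (55.5%), beside 51.7% of all, and 143 (60.6%) had 0 sorted reads, beside 57.6% of all. The median log2 ratio of library shares was -3.17, beside -2.82 over all sgRNAs, and both medians fall on sgRNAs that the sorted library lacks. Among sgRNAs with sorted reads the median odds ratio was 2.24 for the 93 receptor sgRNAs and 1.98 overall. The 307 sgRNAs against GPR genes, which include most orphan receptors of the same superfamily, were enriched in 18.6% of cases, and those against olfactory receptors in 17.4%. Under a negative binomial test that takes its spread from the olfactory receptor sgRNAs, 0 of the 236 were enriched (0.436% of all sgRNAs), and 5 receptor sgRNAs had an unadjusted p under 0.05 at an odds ratio of at least 2, beside 3.40% of all sgRNAs.

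Gene by gene, all 4 sgRNAs were enriched for HRH1 and P2RY12, 3 for HTR2C, 2 for 11 genes and 1 for 18, and 28 receptor genes had none. At least 1 sgRNA was enriched for 32 of the 60 genes (53.3%, beside 59.3% of all genes). At least 2 were enriched for 14 (23.3%, beside 18.8% of all genes). At least 3 were enriched for 3 (5.00%, beside 2.84% of all genes). All 4 were enriched in 0.157% of all genes. At the other end, 11 receptor genes (18.3%) had 0 sorted reads for every sgRNA, beside 14.6% of all genes. These were HRH3, CHRM5, DRD3, HTR1D, HTR1E, HTR2A, HTR3A, HTR5A, HTR6, P2RX4 and P2RY6. Both outcomes often fell on 1 gene, as in the rest of the library: 29 of the 60 genes had both an enriched sgRNA and one with 0 sorted reads, a pattern found in 55.2% of all genes.

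Histamine receptors had 6 enriched sgRNAs of 16 (37.5%, beside 20.8% of all sgRNAs), against HRH1 and HRH2 alone. HRH1 couples to Gq and mediates the allergic response of smooth muscle and vessels. HRH1-a counted 51 reads unsorted and 85 sorted, for an odds ratio of 12.0, with an exact 95% confidence interval of 8.39 to 17.3 and an adjusted p of 1.38e-41 by Fisher's exact test. Intervals below are of the same kind. HRH1-b had 176 and 89 reads, an odds ratio of 3.64 (2.79 to 4.73). HRH1-c had 92 and 34 reads, with an odds ratio of 2.66 (1.74 to 3.98). The intervals of these guides all lay above 1, and that of HRH1-a lay wholly above the others. HRH1 kept 4 enriched sgRNAs at 30 or more unsorted reads, but 2 with Bonferroni adjustment, 1 with the threshold raised to an odds ratio of 4, and 0 in the negative binomial test.

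HRH2, the Gs-coupled receptor of gastric acid secretion, was divided evenly. Its enriched sgRNAs went from 80 unsorted to 43 sorted reads and from 220 to 96, odds ratios of 3.87 (2.61 to 5.68) and 3.14 (2.45 to 4.01). The other pair had 245 and 198 unsorted reads and 0 sorted reads, bounds of at least 11.3-fold lower and at least 9.16-fold lower. HRH3, the Gi-coupled receptor of histamine neurons, had 0 sorted reads for all sgRNAs, which had 288, 45, 32 and 30 unsorted reads. The first was at least 13.3-fold lower, and the last did not pass (adjusted p = 0.0554, Fisher's exact test). HRH4, the Gi-coupled receptor of blood cells, had 425 unsorted and 63 sorted reads for its most abundant sgRNA, an odds ratio of 1.07 (0.806 to 1.39), and 0 sorted reads for the others, which had 229, 80 and 49 unsorted reads. The guides of this family therefore covered the range from enrichment in all to loss in all.

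Among the α-adrenergic receptors 6 of 24 sgRNAs were enriched, spread over 5 of the 6 genes. ADRA1B, a Gq-coupled receptor that contracts vessels, had the highest median log2 ratio of the family, at 0.76. ADRA1B-a counted 50 reads unsorted and 78 sorted, for an odds ratio of 11.2 (7.78 to 16.4; adjusted p = 3.94e-37, Fisher's exact test). A further ADRA1B sgRNA with 201 and 59 reads had 2.11 (1.55 to 2.84), one with 211 and 39 had 1.33 (0.921 to 1.88), and the last had 19 unsorted and 0 sorted reads. The strength thus lay in a single guide. Its relative ADRA1A began the same way: the top sgRNA had 70 and 83 reads, an odds ratio of 8.54 (6.14 to 11.9), and the next had 140 and 38 reads, with 1.96 (1.33 to 2.82), just under the threshold. Its other sgRNAs were depleted, at 147 and 2 reads, an odds ratio of 0.0980 (0.0118 to 0.360), and at 58 and 0 reads, at least 2.68-fold lower, so the median of ADRA1A was -1.03. ADRA2B, a Gi-coupled receptor, had the lowest median, -5.39, with 247 and 27 reads for one sgRNA (odds ratio 0.787, 0.509 to 1.17) and 0 sorted reads for the others, which had 171, 159 and 142 unsorted reads. The largest bound of the whole set belonged to ADRA2A, where one sgRNA had 747 unsorted and 0 sorted reads, at least 34.6-fold lower, while another had 164 and 102 reads, an odds ratio of 4.48 (3.46 to 5.77).

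The β-adrenergic receptors all couple to Gs. ADRB3, the receptor of fat cells, had 350 and 53 reads for one sgRNA, an odds ratio of 1.09 (0.801 to 1.46), and 0 sorted reads for sgRNAs with 188, 179 and 74 unsorted reads. ADRB1, the receptor of the heart, was poorly covered. Its sgRNAs had 124, 26, 12 and 10 unsorted reads, and 3, 0, 0 and 0 sorted reads. In this table an sgRNA absent from the sorted library needed at least 31 unsorted reads to pass the depletion test, so the last 3 could not have passed.

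Dopamine receptors had 2 enriched sgRNAs of 19 (10.5%, beside 20.8% of all sgRNAs), and 14 were depleted (73.7%, beside 51.7% of all). The enriched ones were an sgRNA against DRD1, with 45 unsorted and 14 sorted reads and an odds ratio of 2.24 (1.14 to 4.16; adjusted p = 0.0195, Fisher's exact test), and one against DRD5, with 102 and 44 reads and 3.11 (2.13 to 4.47). Both genes encode Gs-coupled receptors. DRD2, the Gi-coupled target of antipsychotic drugs, had the highest median of the family, -2.40. It had sgRNAs with 205 and 56 reads and with 122 and 29, odds ratios of 1.97 (1.44 to 2.66) and 1.71 (1.10 to 2.58), and sgRNAs with 190 and 174 unsorted and 0 sorted reads. Neither of the first pair reached the threshold of 2, and both passed when any odds ratio above 1 was accepted. DRD4 had the lowest median, -5.42, with 387 and 41 reads for one sgRNA (odds ratio 0.763, 0.539 to 1.05) and 0 sorted reads for those with 255, 228 and 104 unsorted reads. All sgRNAs against DRD3 were missing from the sorted library, at 433, 102, 97 and 93 unsorted reads.

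Serotonin receptors are the largest family here, with 66 sgRNAs against 17 genes. Enrichment was called for 10 (15.2%, beside 20.8% of all sgRNAs), and 50 (75.8%, beside 57.6% of all) were absent from the sorted library. The family had a median of 81.5 unsorted reads per sgRNA, beside 103 for all sgRNAs. HTR2C, a Gq-coupled receptor of the brain that restrains appetite, stood at the top, with a median log2 ratio of 1.79. HTR2C-a counted 71 reads unsorted and 51 sorted, for an odds ratio of 5.17 (3.54 to 7.52; adjusted p = 1.56e-15, Fisher's exact test). HTR2C-b had 65 and 33 reads and HTR2C-c had 113 and 51, with odds ratios of 3.66 (2.33 to 5.64) and 3.25 (2.29 to 4.56). HTR2C-d had 32 and 0 reads and was called depleted, at least 1.48-fold lower. The enriched guides of HTR2C thus had overlapping intervals, and the guide that went the other way was the one with the fewest reads.

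The other members of the HTR2 group did not follow HTR2C. HTR2B-a counted 33 reads unsorted and 37 sorted, for an odds ratio of 8.08 (4.91 to 13.3), while the other HTR2B sgRNAs, with 183, 28 and 10 unsorted reads, had 0 sorted reads. HTR2A, the main receptor for serotonergic hallucinogens, had 68, 67, 61 and 12 unsorted reads and 0 sorted reads throughout. Of the Gi-coupled HTR1 group, HTR1B-a had 61 and 58 reads, an odds ratio of 6.85 (4.70 to 9.98), and the other HTR1B sgRNAs, with 74, 21 and 5 unsorted reads, had none. HTR1D had 111, 99, 41 and 9 unsorted reads and HTR1E had 495, 130, 130 and 71, all with 0 sorted reads. HTR5A had 108, 90, 62 and 32, and HTR6, a Gs-coupled receptor with 3 listed sgRNAs and the lowest median of the family at -5.31, had 155, 142 and 50, again with 0 sorted reads. An HTR4 sgRNA was the most abundant of all receptor sgRNAs before sorting, with 1010 reads, and had 10 afterwards, an odds ratio of 0.0713 (0.0341 to 0.132).

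The HTR3 genes, which encode the subunits of the serotonin-gated channel, had 2 enriched sgRNAs of 20 (10.0%), both against HTR3B. The G protein-coupled serotonin receptors had 8 of 46 (17.4%), and the share over all sgRNAs was 20.8%. The HTR3B sgRNAs had 20 unsorted and 13 sorted reads and 80 and 43 reads, odds ratios of 4.68 (2.14 to 9.89) and 3.87 (2.61 to 5.68). HTR3A, which encodes the subunit that every functional HTR3 channel contains, had 357, 195, 83 and 46 unsorted reads and 0 sorted reads, the first at least 16.5-fold lower. HTR3A and HTR3B are neighbouring genes, and so are HTR3C, HTR3D and HTR3E. The latter had 0 enriched sgRNAs of 12, a small number beside the 20.8% of all sgRNAs.

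Muscarinic acetylcholine receptors had 7 enriched sgRNAs of 20 (35.0%, beside 20.8% of all sgRNAs). They were spread over 4 of the 5 genes (80.0%, where 59.3% of all genes had at least 1). CHRM1, a Gq-coupled receptor of the forebrain, led with CHRM1-a at 76 reads unsorted and 100 sorted, for an odds ratio of 9.48 (6.96 to 12.9; adjusted p = 1.62e-43, Fisher's exact test). Its next sgRNA had 150 and 45 reads and an odds ratio of 2.16 (1.51 to 3.03), one with 88 and 23 had 1.88 (1.14 to 3.01), and the last had 196 and 0 reads, at least 9.07-fold lower. CHRM3, the receptor of glands and smooth muscle, had odds ratios of 4.82 (3.72 to 6.22) and 3.75 (2.24 to 6.13) for its enriched pair, and CHRM2, the receptor that slows the heart, had 3.32 (2.61 to 4.20) and 3.10 (1.86 to 5.04). Both genes also had a depleted sgRNA with sorted reads, at 687 and 34 reads for CHRM3 and 428 and 14 for CHRM2. CHRM4 had 1 enriched sgRNA, and its odds ratio of 2.09 (1.49 to 2.89) was the lowest of all enriched receptor sgRNAs. CHRM5 stood apart from its family with 107, 89, 72 and 61 unsorted reads and 0 sorted reads, each sgRNA called depleted.

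P2Y receptors had 11 enriched sgRNAs of 36 (30.6%, beside 20.8% of all sgRNAs) and the highest median log2 ratio of the families, -1.26. P2RY12, the Gi-coupled ADP receptor of platelets and microglia that clopidogrel blocks, had a narrower range of odds ratios than HRH1, the other gene with every sgRNA enriched. P2RY12-a counted 92 reads unsorted and 84 sorted, for an odds ratio of 6.58 (4.83 to 8.94; adjusted p = 1.50e-29, Fisher's exact test). P2RY12-b had 117 and 86 reads, P2RY12-c had 149 and 98 and P2RY12-d had 104 and 60, with odds ratios of 5.29 (3.96 to 7.05), 4.74 (3.63 to 6.15) and 4.16 (2.97 to 5.76). The interval of each guide overlapped those of the others. P2RY12 kept 4 enriched sgRNAs with Bonferroni adjustment and with the threshold raised to an odds ratio of 4, where it was the only receptor gene with more than 1, and had 0 in the negative binomial test.

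P2RY13 and P2RY14, receptors for ADP and for UDP-sugars, lie close to P2RY12, and these genes all lie within the span of MED12L. P2RY14-a counted 62 reads unsorted and 205 sorted, for an odds ratio of 23.8 (17.8 to 32.2; adjusted p = 2.08e-126, Fisher's exact test), the highest of all receptor sgRNAs. The other P2RY14 sgRNAs had 328 and 102 reads, an odds ratio of 2.24 (1.78 to 2.81), then 34 and 10, 2.12 (0.934 to 4.39) with an adjusted p of 0.0739 by Fisher's exact test, and 19 and 0. P2RY13-a had 121 and 112 reads, an odds ratio of 6.67 (5.11 to 8.69), and its other sgRNAs had 85 and 23, 301 and 63, and 82 and 0 reads, the first of these with an odds ratio of 1.95 (1.17 to 3.12). Among neighbours outside the set, looked up after these values were seen, 0 of 4 sgRNAs were enriched for MED12L and 1 of 4 for GPR171, both in that span, and just outside it 2 of 3 were enriched for IGSF10, 2 of 4 for AADAC and 0 of 4 for AADACL2.

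The remaining P2Y genes varied from enrichment to loss. P2RY4, a Gq-coupled UTP receptor, had a pair of enriched sgRNAs, whose odds ratios were 5.20 (3.02 to 8.86) and 2.71 (2.10 to 3.48). P2RY2, which responds to ATP and UTP, had an sgRNA with 13 reads unsorted and 41 sorted, for an odds ratio of 22.7 (11.9 to 46.2) that rests on few unsorted reads and drops out at a minimum of 30. Its neighbour P2RY6, a UDP receptor, had 102, 89, 83 and 56 unsorted reads and 0 sorted reads, and the lowest median of the family, -4.59. P2RY1 and P2RY10 had 0 enriched sgRNAs and P2RY11 had 1, with an odds ratio of 3.05 (1.96 to 4.63).

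P2X receptors, the ATP-gated channels, had 4 enriched sgRNAs of 28 (14.3%, beside 20.8% of all sgRNAs), and P2RX6 accounted for a pair of them. P2RX6-a counted 261 reads unsorted and 270 sorted, for an odds ratio of 7.45 (6.26 to 8.87; adjusted p = 9.43e-101, Fisher's exact test), the largest sorted count of any receptor sgRNA. A further P2RX6 sgRNA had 76 and 36 reads, an odds ratio of 3.41 (2.23 to 5.14), one had 137 and 16, 0.841 (0.468 to 1.42), and one had 114 and 5, 0.316 (0.101 to 0.759). P2RX6 was thus the one receptor gene besides HRH1 and P2RY12 for which every sgRNA had sorted reads. P2RX1-a, against the channel of smooth muscle and platelets, had 65 and 79 reads, an odds ratio of 8.76 (6.23 to 12.4), and the other P2RX1 sgRNAs, at 303, 37 and 31 unsorted reads, had none. P2RX3, the channel of pain-sensing neurons, had the lowest median of all families, -5.70. It had 355 and 39 reads for one sgRNA (odds ratio 0.791, 0.553 to 1.10) and 0 sorted reads for those with 326, 264 and 132. Its median follows these unsorted counts, since P2RX4, wholly absent from the sorted library, had the higher median of -5.03. P2RX4 had 135, 134, 102 and 60 unsorted reads and 0 sorted reads, and its neighbour P2RX7, the channel that triggers inflammasome activation in macrophages, had sorted reads for 1 sgRNA, 21 beside 171 unsorted reads.

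Among the adenosine receptors 3 of 15 sgRNAs were enriched (20.0%, beside 20.8% of all sgRNAs), all against the Gi-coupled members. ADORA3 had sgRNAs with 135 unsorted and 76 sorted reads and with 210 and 87, odds ratios of 4.06 (3.02 to 5.41; adjusted p = 4.40e-18, Fisher's exact test) and 2.98 (2.30 to 3.85). It also had depleted sgRNAs, with 512 and 20 reads, an odds ratio of 0.281 (0.170 to 0.439), and with 77 and 0 reads, so its median log2 ratio was -0.11. ADORA1, with the lowest median of the family at -4.06, had 90 and 45 reads for one sgRNA, an odds ratio of 3.60 (2.46 to 5.21), and 0 sorted reads for those with 286, 60 and 59. The Gs-coupled ADORA2A and ADORA2B, which raise cyclic AMP in immune cells and vessels, each had sorted reads for a single sgRNA, with odds ratios of 0.680 (0.317 to 1.30) and 1.44 (0.966 to 2.09).

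Grouped by main signal partner instead of ligand, the Gq-coupled receptors had 20 enriched sgRNAs of 60 (33.3%), the Gi-coupled 18 of 83 (21.7%), the Gs-coupled 7 of 41 (17.1%) and the ligand-gated channels 6 of 48 (12.5%), where the share over the whole table is the 20.8% given above. At least 2 sgRNAs were enriched for 6 of 15 Gq genes, 4 of 21 Gi genes, 2 of 11 Gs genes and 2 of 12 channel genes. The share over all genes is 18.8%. The Gq genes were HRH1, HTR2C, ADRA1B, CHRM1, CHRM3 and P2RY4. The class was not uniform, since HTR2A, CHRM5 and P2RY6, also Gq-coupled, were wholly absent from the sorted library. No test of the classes was made, because the sgRNAs of a gene share a target and each population is 1 library.

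By starting abundance, 2 of 28 receptor sgRNAs with under 30 unsorted reads were enriched (7.14%, beside 17.5% of all sgRNAs of that range), 28 of 86 with 30 to 99 reads (32.6%, beside 26.7%), 14 of 79 with at least 100 but under 200 (17.7%, beside 24.1%) and 7 of 43 with 200 or more (16.3%, beside 10.8%). Enriched receptor sgRNAs had a median of 83 unsorted reads and a median GC content of 55%, and those with 0 sorted reads a median of 85 and likewise 55%. The sgRNAs with sorted reads that were not enriched had a median of 177.5 unsorted reads. Enriched and absent guides thus had like medians of both features. At a given sorted count the odds ratio falls as unsorted reads rise, so calls and starting counts are not independent. What underlies the higher starting counts of the guides in between was not tested.

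Closely related receptors can share guide-like sequence, and the mapping allowed 3 mismatches while keeping only reads with a single match. Of the 236 receptor sgRNAs, 3 lie within 3 mismatches of another listed sgRNA. In a pair of them, against the α2 receptors ADRA2A and ADRA2C, the spacers differ at 2 bases, shown here in capitals.
ADRA2A: atgAtggccttgaTgcggcg
ADRA2C: atgGtggccttgaCgcggcg
These had 16 unsorted and 1 sorted reads and 9 and 0 reads, low counts beside the receptor median of 102. The third, against HTR1B, had 21 and 0 reads. Without these 3 sgRNAs the number of enriched receptor sgRNAs was still 51.

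The genes that serve these receptors were also described, as 73 genes with 288 sgRNAs, of which 66 (22.9%) were enriched, beside 20.8% of all sgRNAs. Of 13 G protein alpha subunit genes 1 had at least 2 enriched sgRNAs (7.69%, beside 18.8% of all genes). It was GNAZ, a Gi-type subunit, with odds ratios of 8.08, 3.57 and 1.62 for its 3 listed sgRNAs. GNAQ, the alpha subunit that most Gq receptors use, had 0 enriched and 4 depleted sgRNAs, where 51.7% of all sgRNAs were depleted. Of the other Gq-type subunits, GNA11 and GNA14 each had 1 enriched sgRNA, with odds ratios of 10.3 and 5.85, and 3 depleted. GNA15 had 0 enriched and 3 depleted. At least 2 were enriched for 3 of 10 adenylyl cyclases (ADCY3, ADCY7 and ADCY10) and 3 of 11 phospholipase C beta and protein kinase A genes. These shares are 30.0% and 27.3%, beside 18.8% of all genes. Among the latter was PRKACG, a catalytic subunit of protein kinase A, with odds ratios of 11.3, 3.94 and 2.11 and one more sgRNA with 338 unsorted and 0 sorted reads. Of 7 arrestin and receptor kinase genes 1 had at least 2 enriched sgRNAs, GRK4 with 2 (14.3%, beside 18.8% of all genes). ADRBK1, the main kinase of β-adrenergic receptors, had 84, 34, 120 and 227 unsorted reads and 0 sorted reads.

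Genes that make, remove or carry the transmitters differed among themselves. Of 8 synthesis genes 5 had 1 enriched sgRNA (62.5%, where 59.3% of all genes had at least 1). At least 2, found in 18.8% of all genes, were enriched for 0 of the 8. Of 13 breakdown genes 7 had 2 enriched sgRNAs (among them MAOA, MAOB, ADA, NT5E, ENTPD1 and ENTPD2), a share of 53.8% where 18.8% of all genes have at least 2. MAOA and MAOB, the mitochondrial enzymes that oxidize serotonin and dopamine, had top odds ratios of 8.43 and 10.0, and NT5E, which makes adenosine outside the cell, had 9.38 and 4.57. ADA, which breaks adenosine down, had 81 sorted and 0 unsorted reads for one sgRNA and 60 unsorted and 131 sorted reads for another, an odds ratio of 15.7. MAOA, MAOB, ENTPD1 and ENTPD2 each also had 2 sgRNAs with 0 sorted reads. Of 11 transporter genes 3 had 2 enriched sgRNAs (SLC18A2, SLC5A7 and SLC17A9), a share of 27.3% beside the same 18.8%. The ATP release channel PANX1 had 111, 246, 228 and 151 unsorted reads and 0 sorted reads. The breakdown list is short, was not tested as a set, and was drawn up with earlier results of these libraries known.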

How the data were processed

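The authors sequenced sgRNA cassettes from 1 unsorted and 1 sorted library on a MiSeq. They took the 20 bases after the pre-guide sequence, mapped them to the Brunello spacers with Bowtie 1.2.2 (also in the submitters' processing notes; at most 3 mismatches, single matches kept), and deposited whole-number read counts per sgRNA with library totals, not normalized. Deposited odds ratios and p-values were not used. Symbols came from the text stored with each guide. The 3 repeated entries were dropped. The 60 receptor genes all matched RefSeq (GRCh38.p14), used for names and gene order only. The sources used here name no genome build, so no coordinates are given and cut sites were not located.

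Each of the 74336 sgRNAs was compared between libraries by Fisher's exact test on its counts. Log2 ratios of library shares used a pseudocount of 0.5. Intervals of odds ratios are exact conditional 95% intervals. Receptor members, signal classes, gene lists and tests were chosen with earlier results of these data known. Values per sgRNA are given for genes with at least 3 enriched sgRNAs, HRH1, P2RY12, genes with at least 4 sgRNAs all at 0 sorted reads, the highest and lowest median of each family of at least 3 genes, and the 10 largest odds ratios at 30 or more unsorted reads; some members are not reported here, and further genes were added after their values were seen. Alternatives were other odds ratio thresholds, Bonferroni adjustment, a minimum of 30 reads, olfactory receptor totals, a negative binomial test (dispersion 8.67), a pseudocount of 5, the mean, and removal of near-identical guides. Scripts were tested on simulated data and used Python 3.11.15, numpy 2.4.6, pandas 2.3.3 and scipy 1.17.1.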

Additional observations from a re-analysis of the deposited data

How the results depend on the processing

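No paired analysis was possible because each population is 1 library. With the threshold raised to an odds ratio of 4, the enriched receptor sgRNAs numbered 25, genes with at least 2 enriched sgRNAs 1 and with at least 3 also 1, in each case P2RY12. With Bonferroni adjustment 61 receptor sgRNAs were depleted and 9 genes had at least 2 enriched sgRNAs. In the negative binomial test 0 receptor sgRNAs were enriched, and 0 genes had at least 2 or at least 3 enriched. Over the full library 324 sgRNAs were enriched. Depletion was called for 0 sgRNAs, receptor or other, but this test could not call it. At a dispersion of 8.67, a count of 0 sorted reads is likely even for abundant sgRNAs. Accepting any odds ratio above 1 gave 5 genes with at least 3. The median log2 ratio of the receptor sgRNAs was -0.43 with a pseudocount of 5 and -2.30 as a mean, since it falls on sgRNAs with 0 sorted reads, whose value the pseudocount sets. For the remaining pairs of result and alternative the counts stayed within 1.5 times and the median within -3.69 to -2.44. That range is an exact 95% interval that counts the receptor sgRNAs as independent. They are not replicates, so it serves as a yardstick and not as a test. Of the 32 receptor genes with values per sgRNA, 15 had fewer enriched sgRNAs in the negative binomial test by more than 1.5 times, 9 with the raised threshold and 4 with Bonferroni adjustment (among them HRH1, ADRA1B and CHRM1). DRD2, P2RY13 and ADRA1A had 2, 3 and 2 when any odds ratio above 1 was accepted and 1, 2 and 2 with olfactory receptor totals, where they had 0, 1 and 1 with the settings of the report. Of the 143 receptor sgRNAs with 0 sorted reads, 26 had too few unsorted reads to be called depleted.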
